A study of Mus musculus with 19 samples.

Results

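CD8 T lymphocytes that lack T-bet and carry Stat5ca, a constantly active form of Stat5, were compared with control effector cells after both had been transferred into host mice. The arrays were chosen by their labels alone: 3 T-betKO Stat5ca arrays and 2 control arrays, 5 of the 19 arrays of the series, over all 19938 measured genes. The T-betKO Stat5ca cells carry the T-BetKO genotype, with C57BL/6 as the strain and B10.D2 as the genetic background in the labels. They were stimulated with antibodies to CD3 and CD28, were transduced with Stat5ca and were recovered from the spleen and lymph nodes on day 14 (arrays 39 and 40) and day 54 (array 41). Beside the T-betKO arrays, a set of 4 arrays of T-bet-sufficient Stat5ca cells, recovered on day 20, is also used. Those cells and the control cells are TCRP1A transgenic Rag-1-/- cells on a B10.D2 background, which all carry 1 transgenic T-cell receptor and were activated for 72 h with their antigen. The control cells carry no Stat5ca and were recovered on days 18 (array 30) and 120 (array 32). The sample titles name congenic hosts for the Stat5ca and control cells and no host for the T-betKO cells. The series description also calls the T-betKO cells TCRP1A, which their genotype label does not, and it puts recovery of the TCRP1A cells later than day 20. T-bet loss, Stat5ca, the stimulus, the strain label and the labelling protocol differ together between the compared groups. So do the Rag-1-/- and transgenic receptor labels and the days of recovery, and none of these can be told apart. T-betKO and T-bet-sufficient Stat5ca cells also differ in stimulus, strain label, Rag-1-/- and receptor labels and day of recovery. Their RNA integrity numbers differed too, 7, 6 and 8 against 8 to 9. Whether these 2 groups share a labelling protocol is not given here. That comparison thus does not isolate the loss of T-bet.

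Stat5 is the transcription factor that carries signals of interleukin-2, interleukin-7 and interleukin-15 to the nucleus, where it binds palindromic sites and switches on feedback inhibitors and the high-affinity interleukin-2 receptor. T-bet, encoded by Tbx21, is the T-box factor that drives the killer and interferon-gamma program of CD8 T cells and holds back the type 2 program of interleukin-4, interleukin-5 and interleukin-13. Eomes, a related T-box factor, shares part of the work of T-bet in CD8 T cells.

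Tbx21 had log2 signals of 8.18, 8.19 and 8.34 in T-betKO Stat5ca cells, 11.77 to 11.97 in Stat5ca cells, and 11.24 and 11.01 in control cells. The T-betKO arrays lay far below all others and close to the mean of 8.54 in naive cells, which have little T-bet. The log2 change of Tbx21 against control cells was −2.89 ± 0.15 (SE, adjusted p = 7.38e-09, limma with Benjamini-Hochberg adjustment over all genes). Whether the probe set lies inside the deleted part of the gene is not given in the sources used here. Eomes was at 11.28, 10.98 and 12.12 in T-betKO Stat5ca cells, 11.77 to 11.91 in Stat5ca cells, and 10.47 and 9.65 in control cells. The T-betKO and control arrays of Eomes did not overlap, and the difference of 1.40 ± 0.48 did not pass the test (adjusted p = 0.129).

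The T-betKO arrays fell into 2 kinds. Arrays 39 and 40 were close to each other, with 4 genes at least 2-fold apart, whereas array 41 differed from them at 956 and 909 genes and was nearer to the Stat5ca arrays, from which it differed at 224 to 392 genes. The mean log2 signal of 22 myeloid markers was 12.62, 12.57 and 11.04 in T-betKO Stat5ca cells (arrays 39, 40 and 41), 9.89 to 10.91 in Stat5ca cells, and 12.74 and 12.68 in control cells. Myeloid RNA was at a similar level on arrays 39 and 40 and the controls, while array 41 was lower and close to the Stat5ca arrays. All 22 myeloid markers were above background, a log2 signal of 7.32, on the T-betKO and control arrays. The 9 neutrophil markers averaged 11.63, 11.31 and 9.28 in T-betKO Stat5ca cells, 8.15 to 10.05 in Stat5ca cells, and 12.87 and 11.92 in control cells. The 12 T-cell identity genes averaged 11.83, 11.72 and 12.26 in T-betKO Stat5ca cells, 12.24 to 12.30 in Stat5ca cells, and 11.68 and 11.47 in control cells. Of the erythroid, platelet, neutrophil, myeloid, dendritic, B-cell and plasma-cell lists, 0 members were called by limma between T-betKO Stat5ca and control cells. At an unadjusted p under 0.05 there were 5 of 14 B-cell, 2 of 9 dendritic and 1 of 9 neutrophil genes, and 0 of the others. Signs were positive in 0 of 22 myeloid, 0 of 9 neutrophil and 0 of 5 erythroid genes (median changes −0.59, −1.77 and −0.74). They were positive in 1 of 4 platelet, 2 of 9 dendritic, 8 of 14 B-cell and 4 of 5 plasma-cell genes. The limma spread took in the naive arrays, where the myeloid level ran from 7.86 to 12.12. The lack of calls therefore does not show equal levels. The coreceptor gene Cd8b1 was at 12.96, 12.81 and 13.32 in T-betKO Stat5ca cells and at 13.36 and 13.05 in control cells. Cd4 was at 9.26, 9.44 and 8.27 in T-betKO Stat5ca cells, 8.13 to 8.38 in Stat5ca cells, and 9.53 and 9.48 in control cells, and was not called (adjusted p = 0.472). In bulk RNA, fewer cells of a type and less RNA per cell cannot be told apart. The female transcript Xist and the Y-linked genes were both present on T-betKO arrays 39 and 40 and control array 30, while T-betKO array 41 and control array 32 had Xist at 6.48 and 6.45, under background; 0 of the 4 sex-linked genes were called by limma or at an unadjusted p under 0.05.

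**Figure D1:**
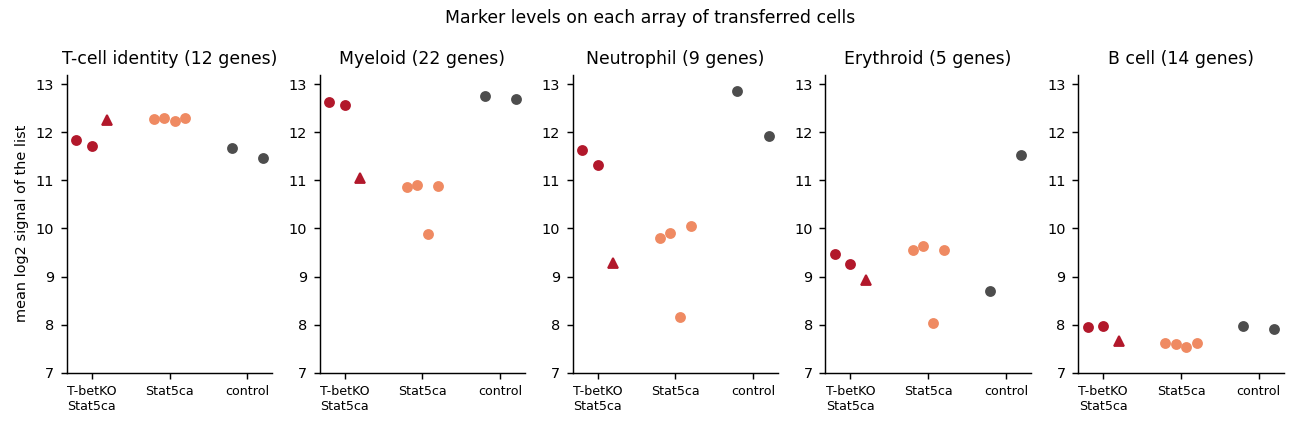
Mean log2 signal (vertical axis) of the markers of 5 cell types on each array of T-betKO Stat5ca (3 arrays, array 41 as a triangle), Stat5ca (4) and control cells (2) after transfer. Each point is 1 array, and the myeloid level of T-betKO arrays 39 and 40 (12.62 and 12.57) lies near the controls (12.74 and 12.68), with array 41 at 11.04.

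Between T-betKO Stat5ca and control cells, 678 of 19938 genes were called at an adjusted p under 0.05 (3.4%), 484 of them higher (2.43%) and 194 lower (0.973%) in T-betKO Stat5ca cells. At least 2-fold changes were seen at 145 higher genes (0.727%) and 54 lower genes (0.271%). The median change over all genes was 0.05. The RNA integrity number was 7, 6 and 8 on T-betKO arrays 39, 40 and 41, 8 to 9 on the Stat5ca arrays and 8 on both control arrays, and with it as a covariate 347 genes were called. The excess of rises did not hold without control array 30, when 161 genes were higher and 199 lower, and without T-betKO array 41, 773 were higher and 520 lower. The count depended on the arrays and on the model: it was 66 when the spread was taken from these 5 arrays alone, 1293 without T-betKO array 41, 408 without 39, 438 without 40, 360 without control array 30 and 331 without control array 32. On the signals as measured, the largest called rises were those of Ccr8, Ccr4, Penk, Il13 and Il2ra. Counted from background they were those of Ccr4 (4.14), Il13 (4.11), Penk (3.96), Il2ra (3.71) and Ccl24 (3.49), with Ccr8 at 3.25, since its controls lay under background. The largest called falls were those of H2-Ea, Tbx21 and Phospho1.

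**Figure D2:**
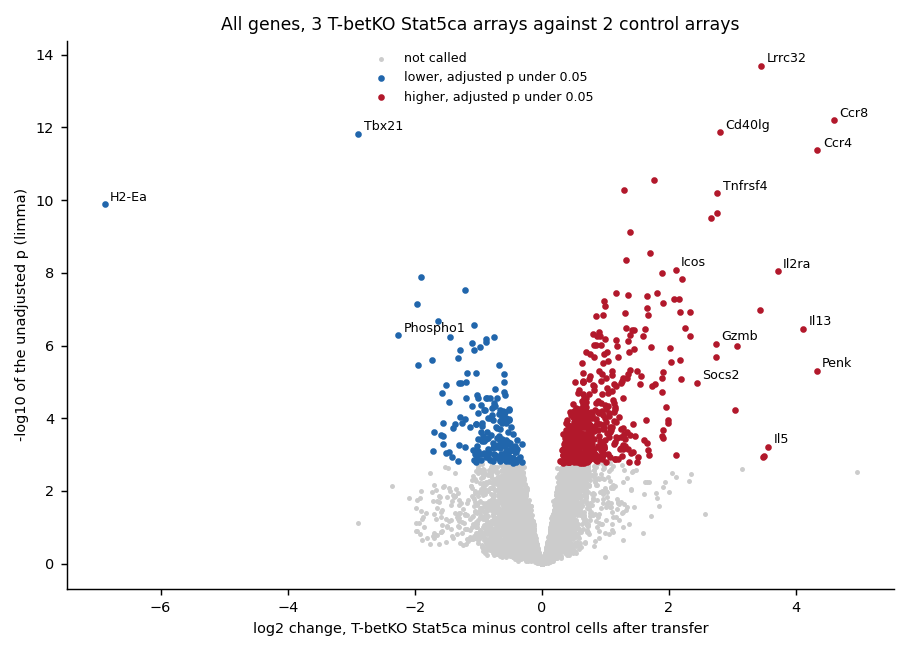
Log2 change between T-betKO Stat5ca and control cells (horizontal axis) against the −log10 of the unadjusted limma p (vertical axis), 1 point a gene. Called genes are coloured, 484 higher in red and 194 lower in blue, on signals as measured, with Ccr8 the highest and H2-Ea the lowest change among the called genes.

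Cish, Socs2 and Il2ra, textbook targets of Stat5, were among the genes that rose in T-betKO Stat5ca cells. Of 25 listed Stat5 targets, 10 rose and 1 fell, against 2.43% and 0.973% of all genes, and the median change of the list was 0.39 (0.05 over all genes). Leaving out any 1 array gave 9 to 10 rises, and the fit of these 5 arrays alone gave 5. Cish, an inhibitor of cytokine receptor signalling, was at 11.85, 11.79 and 12.08 in T-betKO Stat5ca cells, 11.99 to 12.09 in Stat5ca cells, and 9.17 and 9.33 in control cells. All T-betKO arrays were thus above both controls and within or next to the range of the Stat5ca arrays, a rise of 2.65 ± 0.20 (adjusted p = 5.51e-07). Socs2, another such inhibitor, was at 12.11, 11.99 and 12.13 in T-betKO Stat5ca cells, 12.73 to 12.88 in Stat5ca cells, and 9.78 and 9.51 in control cells, and it rose by 2.43 ± 0.39 (adjusted p = 0.00171). Socs1 rose by 1.34 ± 0.21 (adjusted p = 0.00141). Il2ra, the alpha chain of the interleukin-2 receptor, was at 13.02, 12.88 and 13.02 in T-betKO Stat5ca cells, 12.06 to 12.50 in Stat5ca cells, and 9.05 and 9.48 in control cells. Its rise of 3.71 ± 0.35 (adjusted p = 1.14e-05) was among the largest of the comparison. Cdk6, a kinase of the cell cycle, rose by 1.26 ± 0.20 (adjusted p = 0.00163). The member that fell was Bcl6, a repressor that opposes effector differentiation, by −1.27 ± 0.20 (adjusted p = 0.00176). The other rises were those of Tnfrsf4, Tnfrsf9, Tnfrsf18 and Foxp3, given with the receptors, and of the cytokine Lta (0.84). Targets with no call included Pim1, Myc, Bcl2, Ccnd2, Id2 and Il2rb. Cdk6 was named after its values were seen.

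Stat5a itself was at 10.86, 10.89 and 11.06 in T-betKO Stat5ca cells, 11.54 to 11.81 in Stat5ca cells, and 10.46 and 10.03 in control cells. The 3 groups did not overlap: Stat5a rose by 0.69 ± 0.13 against control cells (adjusted p = 0.00648) and was lower than in T-bet-sufficient Stat5ca cells by −0.75 ± 0.11 (adjusted p = 0.00033). Without control array 32 the rise was 0.47 and not called (adjusted p = 0.144). Stat5b differed from control cells by −0.36 ± 0.13, which did not pass the test (adjusted p = 0.149). The labels do not say which Stat5 gene the active form was made from. Of the 9 measured Jak and Stat genes, Stat5a was the 1 called, against 3.4% of all genes. Among 7 receptor genes that share the common gamma chain, 2 rose: Il2ra, and Il9r, encoding the interleukin-9 receptor, by 1.17 ± 0.15 (adjusted p = 0.000245). Il7r, the interleukin-7 receptor, was at 12.05, 11.94 and 13.04 in T-betKO Stat5ca cells, and 13.16 and 13.06 in control cells, without a call (−0.77 ± 0.28, adjusted p = 0.158).

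The Stat motif TTCNNNGAA, a palindrome that reads the same on both strands, was looked for in RefSeq windows of 300 bases (250 before to 50 after each start, GRCm38.p6). It was found in 8.3% of all 32851 windows and in 9.55% of the genes. Of the 9 Stat5 targets that rose and have a window, 5 hold it, and of the 20 largest rises 3 of 13 do. Bcl6, which fell, and Socs3, which was not called, hold it too. Stretches of 4 of these targets and of Gzmb are shown because their expression rose, in 30-base pieces with the motif in capitals, 5′ to 3′ on the strand of the gene. A match describes letters and not a bound site.
Cish, chr9:107296654-107296683, plus strand: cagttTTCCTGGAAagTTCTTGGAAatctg
Foxp3, chrX:7580333-7580362, plus strand: agagctctgttTTCCAAGAAcgggcattag
Tnfrsf9, chr4:150927852-150927881, plus strand: gcaacagctgaTTCCAAGAAacccttcaga
Tnfrsf18, chr4:156026212-156026241, plus strand: ctgctctacacTTCACAGAAggcctttaca
Gzmb, chr14:56262285-56262314, minus strand: gcagtagggcaggagttTTCATAGAAagca
The Cish piece holds 2 copies and the others 1. Gzmb is a cytotoxic gene outside the Stat5 target list, and the remaining target with a match was Lta.

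Of 24 listed cytotoxic genes, 3 rose against control cells, the granzymes A, B and K, and the other 21 did not pass the test. Over all genes, 2.43% rose and 0.973% fell. Gzmb was at 13.03, 12.90 and 13.38 in T-betKO Stat5ca cells, 13.57 to 13.80 in Stat5ca cells, and 10.42 and 10.32 in control cells. It rose by 2.74 ± 0.36 against control cells (adjusted p = 0.000288), and its difference from Stat5ca cells was −0.55 ± 0.30 (adjusted p = 0.216). Gzma was at 11.90, 11.72 and 11.70 in T-betKO Stat5ca cells, 12.56 to 13.27 in Stat5ca cells, and 9.04 and 8.37 in control cells. It rose by 3.07 ± 0.41 against control cells (adjusted p = 0.000308) and was below the Stat5ca arrays by −1.09 ± 0.34 (adjusted p = 0.0328). Gzmk was at 9.74, 9.70 and 11.08 in T-betKO Stat5ca cells, 11.26 to 12.25 in Stat5ca cells, and 8.21 and 8.33 in control cells. Its rise of 1.90 ± 0.40 (adjusted p = 0.0133) was not called without control array 30 (1.84, adjusted p = 0.107) or 32 (1.96, adjusted p = 0.0825). Without T-betKO arrays 39 and 40, 6 cytotoxic genes rose and 1 fell. The granzyme C to G genes are near-identical copies, so a probe set can read several of them.

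Several killer and NK-receptor genes were lower in T-betKO than in T-bet-sufficient Stat5ca cells. Between these groups, 4155 genes were called (20.8%), 1401 higher (7.03%) and 2754 lower (13.8%) in T-betKO Stat5ca cells. At a minimum of 2-fold the balance turned, with 401 higher (2.01%) and 125 lower (0.627%). With RNA integrity as a covariate, 1379 genes were called between these groups. Of the 24 cytotoxic genes, 8 were lower and 2 higher, and of 18 NK-receptor genes, 11 were lower and 0 higher. Cell-type markers moved between the same groups: of 12 T-cell identity genes, 5 were lower and 1 higher in T-betKO Stat5ca cells (median −0.34), and all 22 myeloid markers had a positive sign (median 1.51) with 0 called. Their part in the killer and NK-receptor differences was not tested. Over all genes, 2.43% rose and 0.973% fell against control cells. Against control cells, 1 NK-receptor gene rose, Klra5 (1.47 ± 0.32, adjusted p = 0.0177, with both group means under background), and 1 fell, Klri1 (−1.56, adjusted p = 0.0245). Neither was called without control array 30 (1.46 and −1.81) or 32 (1.47 and −1.32), and Klri1 was not called without T-betKO array 39 (−1.64) or 40 (−1.46). Klrg1, a receptor that marks terminal effector cells, was at 8.25, 8.06 and 7.70 in T-betKO Stat5ca cells, 9.86 to 11.65 in Stat5ca cells, and 7.11 and 6.88 in control cells. The T-betKO arrays lay under all Stat5ca arrays (−2.52 ± 0.35, adjusted p = 0.00024) and above both controls without a call (1.01 ± 0.42, adjusted p = 0.223, or 0.69 counted from background). Klra5, a Ly49 receptor gene whose family shares much sequence, was at 7.85, 6.82 and 6.35 in T-betKO Stat5ca cells, 10.85 to 11.76 in Stat5ca cells, and 5.54 on both control arrays. Its means in T-betKO Stat5ca and control cells both lay under the background of 7.32, and it was −4.19 ± 0.27 lower than in Stat5ca cells (adjusted p = 7.77e-08), or −3.87 counted from background. Gzmm, granzyme M, was at 8.18, 8.20 and 7.97 in T-betKO Stat5ca cells, 10.86 to 11.12 in Stat5ca cells, and 8.97 and 8.23 in control cells. It was −2.92 ± 0.13 lower than in Stat5ca cells (adjusted p = 8.98e-10) and was not called against control cells (−0.48 ± 0.16, adjusted p = 0.106). Klrb1c, Klrc3 and S1pr5, the last a receptor for exit from tissue, were lower than in Stat5ca cells by −2.51, −2.73 and −2.30 and were not called against control cells.

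**Figure D3:**
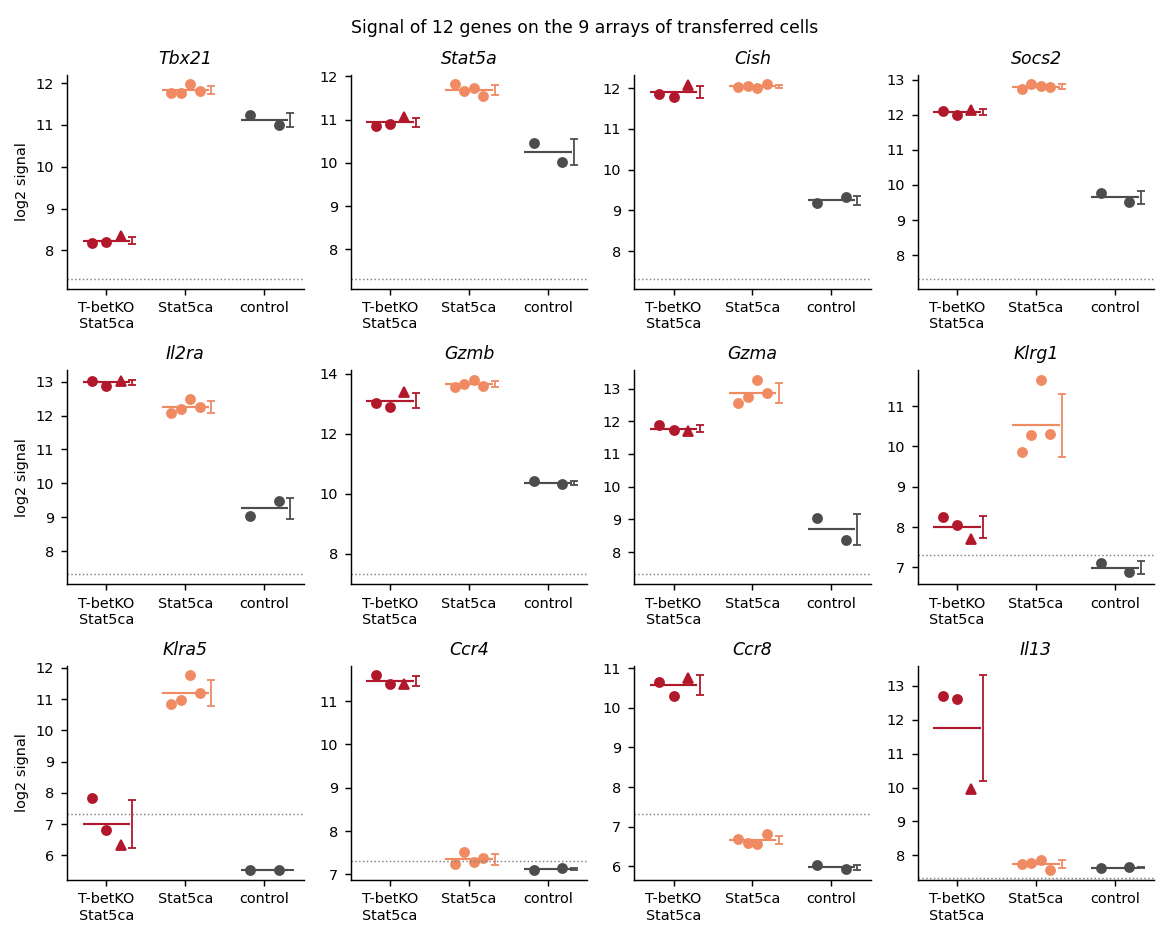
Log2 signal of 12 genes (vertical axis) in T-betKO Stat5ca (3 arrays, array 41 as a triangle), Stat5ca (4) and control cells (2) after transfer. Points are arrays, lines group means, bars SD, and the dotted line the background of 7.32; Cish and Gzmb are high in both Stat5ca groups, Klrg1 and Klra5 in T-bet-sufficient Stat5ca cells, and Ccr4, Ccr8 and Il13 in T-betKO Stat5ca cells.

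T-bet is known for the type 1 program. Of its 20 measured genes, 2 were lower in T-betKO Stat5ca than control cells and 0 higher (0.973% and 2.43% of all genes). Beside Tbx21, the other was Cxcr3, a chemokine receptor that guides T cells to inflamed tissue. Cxcr3 was at 10.16, 9.98 and 10.92 in T-betKO Stat5ca cells, 12.20 to 12.26 in Stat5ca cells, and 11.86 and 11.41 in control cells. Its fall of −1.28 ± 0.25 (adjusted p = 0.00808) was −1.06 and not called without control array 30 (adjusted p = 0.126), and −0.71 and not called without T-betKO arrays 39 and 40 (adjusted p = 0.171). Against T-bet-sufficient Stat5ca cells, 8 type 1 genes were lower and 1 higher (13.8% and 7.03% of all genes), and Cxcr3 fell by 1.87. Ifng, which encodes interferon-gamma and was named after its values were seen, was at 11.71, 11.48 and 12.48 in T-betKO Stat5ca cells, 13.24 to 13.51 in Stat5ca cells, and 11.72 and 11.93 in control cells. Its T-betKO and control arrays overlapped (0.06, adjusted p = 0.953), and it was lower than in Stat5ca cells by −1.50 (adjusted p = 0.00237).

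Against control cells, 2.43% of all genes rose and 0.973% fell, and without T-betKO array 41 the rises went from 484 to 773 genes. By share of members, the type 2 list had more rises than any other list. Of 14 measured members, 9 rose and 0 fell against control cells, with a median change of 1.40 (0.05 over all genes); leaving out any 1 array gave 6 (without control array 30 or 32) to 13 rises (without T-betKO array 41), and the fit of these 5 arrays alone gave 3. Ccr4, a chemokine receptor of type 2 and regulatory T cells, was at 11.59, 11.40 and 11.38 in T-betKO Stat5ca cells, 7.23 to 7.51 in Stat5ca cells, and 7.11 and 7.14 in control cells. All 3 T-betKO arrays stood far above the others, by 4.33 ± 0.25 over control cells (adjusted p = 1.69e-08), or 4.14 counted from background. Ccr8, a receptor of the same kinds of cell, was at 10.65, 10.29 and 10.76 in T-betKO Stat5ca cells, 6.57 to 6.82 in Stat5ca cells, and 6.03 and 5.93 in control cells. It rose by 4.59 ± 0.23 (adjusted p = 6.34e-09), or 3.25 counted from background. Il13 was at 12.69, 12.61 and 9.96 in T-betKO Stat5ca cells, 7.57 to 7.85 in Stat5ca cells, and 7.63 and 7.65 in control cells. The day 54 array lay between the day 14 arrays and the controls. Il13 rose by 4.11 ± 0.50 (adjusted p = 0.000158), and by 2.32 without T-betKO arrays 39 and 40.

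Il5 was at 10.99, 10.63 and 6.26 in T-betKO Stat5ca cells, 5.82 to 6.06 in Stat5ca cells, and 5.80 and 5.66 in control cells. Both controls and array 41 were under background, and the change of 3.56 ± 0.85 (adjusted p = 0.0278) was 1.97 counted from background. It was 2.71 and not called without array 39 (adjusted p = 0.102), 2.89 without array 40 (adjusted p = 0.107) and 0.53 without both (adjusted p = 0.118), and it was not called without control array 30 (3.63, adjusted p = 0.142) or 32 (3.49, adjusted p = 0.157). Il4 was at 8.86, 8.53 and 7.44 in T-betKO Stat5ca cells, and 6.70 and 6.78 in control cells, a rise of 1.54 ± 0.25 (adjusted p = 0.00184), or 0.96 counted from background, and of 0.70 without arrays 39 and 40. Il9 rose by 1.04 ± 0.15 (adjusted p = 0.000599), or 0.64 counted from background. Csf2 and Il2 were called at 1.49 and 1.40, or 0.09 each counted from background, their T-betKO means being 7.41; Il2 was not called without control array 30 (1.44, adjusted p = 0.162) or 32 (1.35, adjusted p = 0.186), and rose by 0.83 without T-betKO array 41. The rise of Il3 lay wholly under background. Gata3, the master factor of the type 2 program, was at 11.58, 11.40 and 10.89 in T-betKO Stat5ca cells, 11.21 to 11.42 in Stat5ca cells, and 10.43 and 10.37 in control cells, without a call (0.89 ± 0.27, adjusted p = 0.0854). Against T-bet-sufficient Stat5ca cells, 10 type 2 genes were higher and 1 lower (7.03% and 13.8% of all genes). Ccr4 was 4.11 ± 0.21 higher than in them and Il13 4.02 ± 0.42, and Ccr8, under background in Stat5ca cells, 3.90 ± 0.20, or 3.25 counted from background. T-betKO Stat5ca and Stat5ca cells are set against the same 2 control arrays. Between Stat5ca and control cells, 4638 genes were called (23.3%), 3166 higher (15.9%) and 1472 lower (7.38%) in Stat5ca cells; at a minimum of 2-fold the balance turned, with 261 higher (1.31%) and 658 lower (3.3%). The changes between Stat5ca and control cells were 0.22 for Ccr4 and 0.09 for Il13, neither called, and 0.69 for Ccr8 (adjusted p = 0.0326), which lay under background in both groups.

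**Figure D4:**
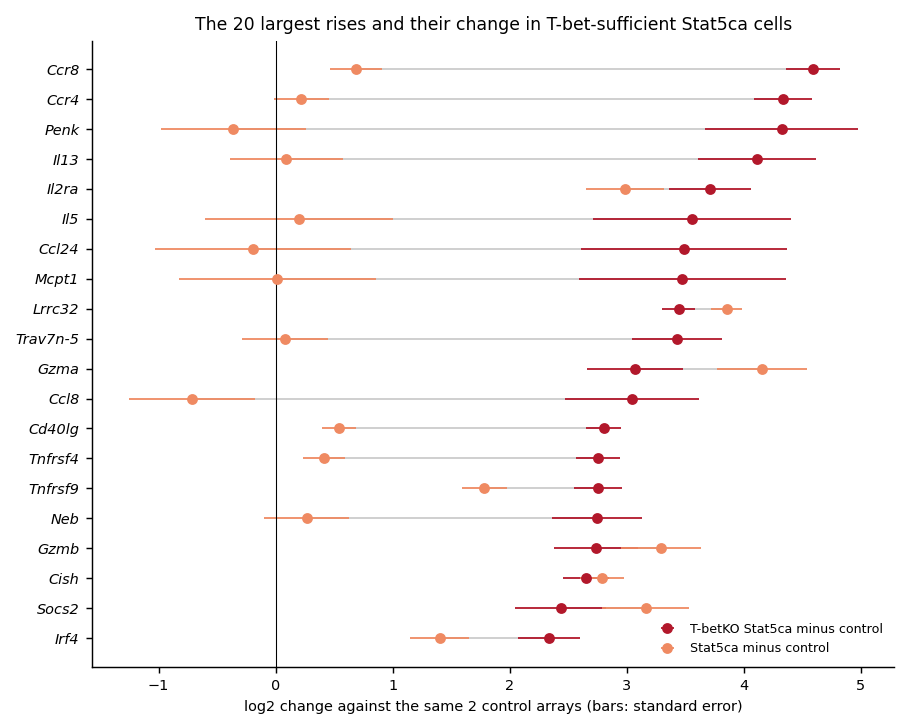
Log2 change against the same 2 control arrays (horizontal axis, bars SE) of the 20 largest rises in T-betKO Stat5ca cells, with the change of T-bet-sufficient Stat5ca cells beside it. The points lie close for Cish (2.65 and 2.79) and far apart for Ccr4 (4.33 and 0.22).

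Of 14 costimulatory receptors and ligands, 7 rose and 0 fell in T-betKO Stat5ca cells against control cells, and the other 7 were not called. Over all genes, 2.43% rose and 0.973% fell. In the fit of these 5 arrays alone 5 members rose, and without T-betKO array 41, 6 rose and 2 fell. Without that array, rises over all genes went from 484 to 773 and falls from 194 to 520. Tnfrsf4, which encodes OX40, was at 11.44, 11.19 and 10.73 in T-betKO Stat5ca cells, 8.69 to 8.85 in Stat5ca cells, and 8.26 and 8.46 in control cells, a rise of 2.76 ± 0.19 (adjusted p = 1.63e-07). Tnfrsf9, which encodes 4-1BB, was at 11.82, 11.73 and 10.96 in T-betKO Stat5ca cells, 10.43 to 10.83 in Stat5ca cells, and 8.72 and 8.77 in control cells, a rise of 2.75 ± 0.20 (adjusted p = 4.56e-07). In both genes the T-betKO arrays were above all others. Icos was at 12.14, 12.11 and 12.21 in T-betKO Stat5ca cells, 10.03 to 10.46 in Stat5ca cells, and 9.65 and 10.45 in control cells, and rose by 2.10 ± 0.20 (adjusted p = 1.11e-05). Cd40lg, the ligand of helper T cells, was at 9.07, 8.50 and 8.70 in T-betKO Stat5ca cells, 6.28 to 6.60 in Stat5ca cells, and 5.83 and 6.08 in control cells. Counted from background its rise of 2.80 was 1.44. Tnfrsf18, which encodes GITR, rose by 1.69 ± 0.15 and Slamf1, a signalling receptor of activated lymphocytes, by 1.90 ± 0.21. Tnfrsf4 was 2.34 ± 0.16 above T-bet-sufficient Stat5ca cells, Icos 1.82 ± 0.17 and Cd40lg 2.26 ± 0.12 (1.44 counted from background), while the differences of Tnfrsf18 (0.16) and Slamf1 (−0.45) were not called. Against those cells, 4 of the 14 members were higher and 3 lower (7.03% and 13.8% of all genes), with a median difference of −0.089. Between Stat5ca and control cells, 8 of the 14 rose and 0 fell (15.9% and 7.38% of all genes).

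Of 8 genes typical of CD4 and regulatory T cells, 4 rose and 0 fell (2.43% and 0.973% of all genes). The rises were those of Lrrc32, Cd40lg, Foxp3 and Ikzf4. Each single array left out gave the same counts, and the fit of these 5 arrays alone gave 3 rises. Lrrc32 encodes GARP, which holds latent TGF-beta on the cell surface. It was at 11.58, 11.44 and 11.35 in T-betKO Stat5ca cells, 11.73 to 12.03 in Stat5ca cells, and 7.94 and 8.08 in control cells. It rose by 3.45 ± 0.14, with the smallest adjusted p of the comparison (3.97e-10). Foxp3, the factor that defines regulatory T cells, was at 9.86, 9.52 and 10.71 in T-betKO Stat5ca cells, 8.13 to 8.29 in Stat5ca cells, and 7.99 and 7.91 in control cells. Array 41 was the highest, and all 3 lay above the other groups (2.08 ± 0.22 over control cells, adjusted p = 4.1e-05, and 1.78 ± 0.19 over Stat5ca cells, adjusted p = 2e-05). Ikzf4, a partner of Foxp3, rose by 1.30 ± 0.15. Cd4, Ikzf2, Zbtb7b and Nrp1 were not called. The part of other T cells in these values was not tested.

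Of 14 inhibitory receptors, 3 rose and 0 fell, against 2.43% and 0.973% of all genes. Ctla4, a brake on costimulation, was at 11.63, 11.65 and 11.60 in T-betKO Stat5ca cells, 9.77 to 10.53 in Stat5ca cells, and 9.26 and 10.52 in control cells, a rise of 1.74 ± 0.28 (adjusted p = 0.002) that was 1.11 without control array 30. Tigit rose by 1.89 ± 0.32, or by 1.11 without control array 30. Pdcd1, which encodes PD-1, was at 8.89, 8.90 and 9.38 in T-betKO Stat5ca cells, 7.55 to 7.79 in Stat5ca cells, and 7.42 and 7.47 in control cells. It rose by 1.61 ± 0.36 (adjusted p = 0.0209) and was not called without control array 30 (1.59, adjusted p = 0.134) or 32 (1.64, adjusted p = 0.117). Of 16 genes of the type 17 program, 5 rose and 1 fell, and without control array 30, 2 rose and 0 fell. Irf4, a factor of activated and helper T cells, was at 10.54, 10.37 and 10.81 in T-betKO Stat5ca cells, 8.85 to 9.95 in Stat5ca cells, and 7.99 and 8.49 in control cells, a rise of 2.33 ± 0.26 (adjusted p = 6.97e-05). Rora, a nuclear receptor of the type 17 and innate-like programs, was at 9.79, 9.79 and 9.93 in T-betKO Stat5ca cells, 8.78 to 8.88 in Stat5ca cells, and 8.53 and 8.57 in control cells. It rose by 1.29 ± 0.09 (adjusted p = 1.46e-07). Ahr rose by 1.43 ± 0.29 (adjusted p = 0.0108), and was not called without T-betKO array 39 (1.26, adjusted p = 0.0501), without 39 and 40 (0.71, adjusted p = 0.226) or without control array 30 (1.22, adjusted p = 0.144). The member that fell was Il6st, a shared receptor chain of the interleukin-6 family (−0.91, and −0.81 without a call when control array 30 was left out, adjusted p = 0.0848). Il17a and Ccr6 were called but their T-betKO signals, 7.46 to 7.68 for Il17a and 7.21 to 7.47 for Ccr6, lay near background.

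Of 18 naive and memory genes, 2 rose and 4 fell against control cells (2.43% and 0.973% of all genes). Without T-betKO array 41, 9 fell, while falls over all genes went from 194 to 520. Lef1, a factor of naive and memory T cells, was at 10.05, 9.95 and 10.10 in T-betKO Stat5ca cells, 10.71 to 10.93 in Stat5ca cells, and 10.996 and 11.013 in control cells. The T-betKO arrays were below all others (−0.97 ± 0.13 against control cells, adjusted p = 0.000323, and −0.78 ± 0.11 against Stat5ca cells, adjusted p = 0.00025). Klf3, a quiescence factor, fell by 0.75 (log2 change −0.75 ± 0.12, adjusted p = 0.00228). Cxcr5, the receptor for entry into B-cell follicles, was under background in T-betKO Stat5ca cells, and its fall of −1.72 was −0.34 counted from background; it was not called without T-betKO array 39, without 40 or without control array 30 (−1.48, −1.74 and −1.08). The rises were those of the transcription factors Tox (1.25) and Myb (0.79), the first not called without control array 32 (0.96, adjusted p = 0.223) and the second not without T-betKO array 39 (0.81, adjusted p = 0.0544) or control array 30 (0.59, adjusted p = 0.295). Satb1, Ccr7 and Cd27 were not called. Of 24 homing genes, 3 rose and 2 fell, and all 5 have been described above: Ccr4, Ccr8, Ccr6, Cxcr3 and Cxcr5.

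Among 39 cell-cycle genes, 6 rose and 0 fell, against 2.43% and 0.973% of all genes. These were Foxm1 (1.18 ± 0.26), Mcm5 (0.98 ± 0.20), Mcm6, Mcm3, Gins2 and Mcm4, mostly parts of the helicase that opens DNA for replication. The median change of the list was 0.78. Mki67 was at 11.79, 11.69 and 11.47 in T-betKO Stat5ca cells, and 10.26 and 11.39 in control cells, so that control array 30 was lower than all others. The count of rises was 13 without T-betKO array 41, 0 without arrays 39 and 40, and 1 without control array 30. Rises over all genes went from 484 to 773 without T-betKO array 41. Of 15 glycolysis genes, 3 rose (Pgk1 by 0.83, Pfkp by 0.67 and Ldha by 0.36), and of 14 amino-acid and one-carbon genes, 3 rose, led by the serine-synthesis enzyme Psat1 (0.97 ± 0.10, adjusted p = 4.26e-05). Pgk1 was not called without control array 32 (0.75, adjusted p = 0.0844) and Pfkp not without control array 30 (0.52, adjusted p = 0.0837), while Ldha was not called without T-betKO array 39 (0.33) or 40 (0.32) or control array 30 (0.41) or 32 (0.31). Of 23 ribosome-biogenesis genes, 2 rose, of 11 quiescence genes 2, of 13 S100 and annexin genes 2, of 20 immediate-early genes 3, and no member of these lists was called lower; each of these 9 calls ended without at least 1 of the 5 arrays. The T-cell identity genes Cd5 and Cd6 rose by 1.17 and 1.15, and the other 10 measured were not called; without control array 32, Cd6 was not called (1.11, adjusted p = 0.0613). Of 24 interferon-stimulated genes, 0 rose and 2 fell, Oasl2 by −1.55 ± 0.34 and Usp18 by −1.32 ± 0.35. Oasl2 was not called without control array 30 (−1.50, adjusted p = 0.128) or 32 (−1.61, adjusted p = 0.0957), and Usp18 was not called without any 1 of the 5 arrays (−1.14 to −1.50). Of 8 Gimap genes, 1 fell against control cells, Gimap3 (−0.85). Gimap3 was not called without T-betKO array 39 or 40 or control array 30 or 32 (−0.66 to −0.87). All 8 were lower than in T-bet-sufficient Stat5ca cells, against 13.8% of all genes. None of the 15 sterol, 12 fatty-acid oxidation, 13 survival, 7 heat-shock or 8 MHC class I genes was called by limma, against 1, 3, 4, 4 and 1 at an unadjusted p under 0.05.

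**Figure D5:**
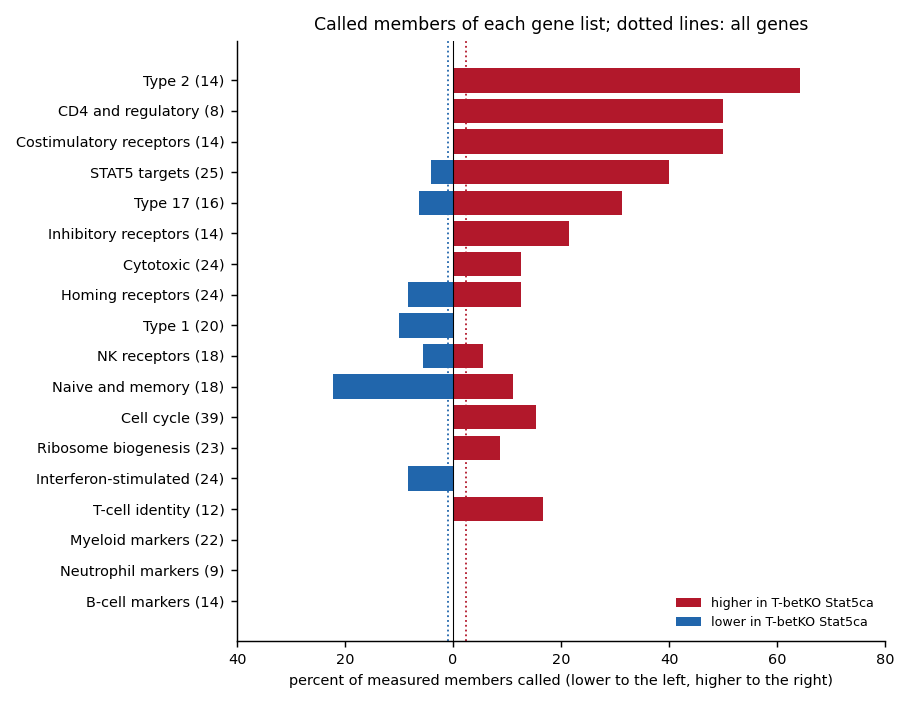
Percent of the measured members of 18 gene lists called higher (right, red) or lower (left, blue) in T-betKO Stat5ca than in control cells, with the number measured in brackets. The dotted lines mark all genes (2.43% and 0.973%). On signals as measured, the type 2 list stands farthest to the right with 9 of 14 members.

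Several of the largest changes lay outside these programs. H2-Ea, a class II MHC chain gene, was at 6.51, 6.55 and 6.97 in T-betKO Stat5ca cells, 12.91 to 13.08 in Stat5ca cells, and 13.52 and 13.60 in control cells. The T-betKO arrays were under background, and the fall of −6.88 ± 0.49 (adjusted p = 2.91e-07) was −6.24 counted from it. The other 8 measured class II genes were not called. H2-Ea is known to be silent in C57BL/6 mice, the strain that the labels give the T-betKO cells. The part of strain in this fall was not tested, nor were the cells from which the signal came. Trav7n-5, a variable segment of the T-cell receptor alpha chain, was at 8.85, 7.90 and 9.97 in T-betKO Stat5ca cells, 5.25 to 5.79 in Stat5ca cells, and 5.39 and 5.56 in control cells. It rose by 3.43 ± 0.39 (adjusted p = 6.69e-05), or 1.59 counted from background. Trbv1 and Trav19, named after their values were seen, rose by 2.01 ± 0.27 and 1.66 ± 0.17. These segments resemble each other, so a probe set may read more than 1. The Stat5ca and control cells carry 1 transgenic receptor.

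Penk, which encodes enkephalin, was at 12.34, 12.23 and 9.28 in T-betKO Stat5ca cells, 6.47 to 6.73 in Stat5ca cells, and 6.93 and 7.00 in control cells, a rise of 4.32 ± 0.65 (adjusted p = 0.00107), or 3.96 counted from background, and of 2.32 without arrays 39 and 40. Neb, which encodes the muscle protein nebulin, was at 10.36, 10.29 and 10.06 in T-betKO Stat5ca cells, 7.48 to 8.10 in Stat5ca cells, and 7.50 and 7.48 in control cells, and rose by 2.74 ± 0.39 (adjusted p = 0.0005).

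Ccl24, Mcpt1, Ccl8 and Arg1 were higher on the day 14 arrays 39 and 40 than on array 41. Ccl24, an eosinophil chemokine, was at 12.64, 12.71 and 7.91 in T-betKO Stat5ca cells, 7.28 to 7.61 in Stat5ca cells, and 7.74 and 7.47 in control cells. Array 41 was near the other groups. The rise of 3.49 ± 0.88 (adjusted p = 0.0386) was 0.31 and not called without arrays 39 and 40 (adjusted p = 0.362), and it was not called without array 39 (2.71), 40 (2.68), 30 (3.62) or 32 (3.35). Mcpt1, a mast-cell protease, was at 10.47, 9.92 and 5.41 in T-betKO Stat5ca cells, 5.06 to 5.24 in Stat5ca cells, and 5.14 and 5.11 in control cells. Both controls and array 41 were under background, and the change of 3.48 ± 0.89 (adjusted p = 0.0405) was 1.28 counted from background. It was 0.28 without arrays 39 and 40 and was not called without array 39 (2.54), 40 (2.81), 30 (3.49) or 32 (3.46). Ccl8, a monocyte chemokine, was at 11.17, 10.98 and 9.20 in T-betKO Stat5ca cells, 6.50 to 6.91 in Stat5ca cells, and 8.77 and 6.04 in control cells. Its rise of 3.04 ± 0.57 (adjusted p = 0.00633) was 1.68 and not called without control array 32, and 1.79 without T-betKO arrays 39 and 40. Arg1, an enzyme of alternatively activated macrophages that was named after its values were seen, was at 11.50, 11.46 and 6.82 in T-betKO Stat5ca cells, 6.61 to 6.80 in Stat5ca cells, and 6.83 and 6.74 in control cells, without a call (3.14 ± 0.88, adjusted p = 0.0613, or 2.60 counted from background). Myeloid markers were as high in the controls as on arrays 39 and 40, while Arg1 and Ccl24 were near background there. The part of myeloid RNA in these values was not tested.

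Among the falls, Phospho1, a phosphatase, was at 7.62, 7.56 and 6.90 in T-betKO Stat5ca cells, 7.33 to 7.87 in Stat5ca cells, and 9.53 and 9.71 in control cells, and fell by 2.26 (−2.26 ± 0.29, adjusted p = 0.000204). Gp2, a glycoprotein gene, was at 6.40, 6.81 and 6.45 in T-betKO Stat5ca cells, 6.29 to 6.71 in Stat5ca cells, and 8.65 and 8.24 in control cells; its change of −1.90 was −1.13 counted from background. Chil5, a chitinase-like gene, was at 7.47, 7.05 and 7.34 in T-betKO Stat5ca cells, 8.40 to 8.63 in Stat5ca cells, and 9.39 and 9.11 in control cells (−1.96 ± 0.21). Both Stat5ca groups were below the controls in these 3 genes. The other largest falls, among them Slc6a19, H2-T24, Kcnj8, Olfm4 and Sdc2, lay between −1.94 and −1.45, and that of Sdc2 was −0.26 counted from background.

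Of the called changes of at least 4-fold, the rises nearest in size to those of T-bet-sufficient Stat5ca cells, taken against the same controls, included Cish (2.65 and 2.79), Lrrc32 (3.45 and 3.85), Gzmb (2.74 and 3.29), Osbpl3 (2.32 and 2.95), Il2ra (3.71 and 2.99) and Socs2 (2.43 and 3.16). Osbpl3 encodes an oxysterol-binding protein. Among the falls, Phospho1 was nearest (−2.26 and −1.99). The 2 sets of changes share their control arrays, so their likeness is no result of its own. The direct differences between T-betKO Stat5ca and Stat5ca cells were −0.14 for Cish, −0.55 for Gzmb, −0.63 for Osbpl3, 0.72 for Il2ra and −0.73 for Socs2, none called, and −0.41 for Lrrc32 (adjusted p = 0.0215). These genes were picked because this same difference was small, so its size and the lack of calls are no separate evidence of likeness.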

How the data were processed

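Affymetrix gene arrays measured RNA (0.125 µg an array) of CD8 T cells. The authors deposited log2 signals, 1 for each probe set, from Affymetrix Expression Console per the submitters' processing notes. The sources used here do not give its version, summarization or normalization. The log2 scale was read from the range (3.13 to 14.94), and array medians lay between 7.69 and 7.89. The number of arrays limits the precision.

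Groups came from the labels. The labels do not say that replicates are separate animals, so p-values measure the spread between arrays. Each gene was its brightest probe set: 21789 of 35557 probe sets carried 1 gene, 1621 several and 12147 none. Background was the 95th percentile of 1196 olfactory and vomeronasal receptor genes, 7.32; where a group mean lay under it, the change is also given counted from it for the genes described in detail.

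All 19 arrays (3 T-betKO Stat5ca, 4 Stat5ca and 2 control after transfer, 2 Stat5ca and 4 control at 72 h, 4 naive) were fitted by group with limma 3.58.1 in R 4.3.3 (lmFit, eBayes) and Benjamini-Hochberg adjustment, errors being SE. Figures were drawn with matplotlib 3.10.9, and tables were made with numpy 2.4.6 and pandas 2.3.3 under Python 3.11.15. Data for T-betKO Stat5ca against control were also simulated, with 50 genes for each size of change. Of log2 changes of 0.5, 40% were called, of 1, 88% and of 2, 98%. Of 19738 unchanged genes, 9 were called. These shares describe the simulated data only. The real T-betKO arrays fell into 2 kinds, and the real count of calls ran from 66 to 1964 with the model. The simulation therefore does not give the power or the rate of false calls in the real data.

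The comparison and the 37 gene lists (541 genes, 497 measured) were chosen with earlier results of these data known. Genes named were 16 set by name, the 20 largest rises and 20 largest falls that were called with no overlap between groups, the 10 and 10 of the comparison with Stat5ca cells, up to 8 called and 4 uncalled members of each list, and called changes of at least 4-fold nearest to the Stat5ca effect; others are marked. Tcf7 was not analysed here. Alternatives were a 2-fold minimum, another prior, fewer arrays, array weights, a covariate (RNA integrity or myeloid level), quantile normalization, centring, no dim genes, the mean of a gene's probe sets, and each array left out. A Y-linked covariate and averaging arrays 39 and 40 were added after seeing the data.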

Additional observations from a re-analysis of the deposited data

Results flagged for a closer look

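Among 22 values tested on the 4 Stat5ca arrays after transfer, 7 had 1 array far from the other 3, and it was array 13 each time. Chance flags about 1 in 20 groups. The groups of 3 and 2 arrays were too small for this test. Array 13 had Gzmk at 12.249 (others 11.262 to 11.306), Il7r at 11.36 (others 11.905 to 11.954) and Xist at 10.088 (others 12.666 to 12.73). Its mean marker level was 9.891 for the myeloid list (others 10.854 to 10.907), 8.154 for neutrophils (9.8 to 10.047), 8.025 for erythroid cells (9.549 to 9.624) and 7.929 for platelets (8.317 to 8.32).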

How the results depend on the processing

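No paired analysis was made, because the labels do not tie an array of 1 group to an array of another. The array numbers run through the whole series and say nothing about pairing. The count of 678 genes between T-betKO Stat5ca and control cells was 66 with these 5 arrays alone in the fit, 1964 with array weights, 347 when RNA integrity was a covariate (33 of 101 named calls were lost) and 1170 when the myeloid level was, 377 with arrays 39 and 40 averaged (chosen after seeing the data), 199 at a 2-fold minimum, and 331 to 1293 with 1 array left out. The count of 4155 between T-betKO Stat5ca and Stat5ca cells was 6870, 1379 (RNA integrity), 2130 (averaged), 526 (2-fold) and 1790 to 5237, the first with array weights. The count of 4638 between Stat5ca and control cells was 7416 with array weights, 2913 with the myeloid level, 919 at 2-fold and 2133 to 4038 with 1 array left out. The causes were not tested. Of 101 named genes called against control cells, 51 kept the call with each array left out and 28 under every alternative other than the 2-fold minimum, among them Cish, Socs2, Il2ra, Gzma, Gzmb, Lrrc32, Ccr4, Ccr8, Icos, Tnfrsf4, Tnfrsf9 and Tbx21. None of these 101 changed direction under the alternatives run. Only 2 control arrays limit every value against control.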
